A study of Homo sapiens with 12 samples.

Results

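The 6 genes described here belong to the plasminogen activator system: PLAU, PLAT, PLAUR, ANXA2, SERPINE2 and SERPINB2. They were taken by gene symbol from the 2 deposited expression tables, joined by gene identifier, and are 6 of the 60630 genes that both tables hold. All 6 were found in both tables, and all 6 passed the filter on low values. They were chosen by differences between these same groups, since the symbols were proposed with results of these libraries in view, so their levels and differences are a description. Where a test across all genes also gives calls for them, these are only counted and nothing is read from the counts. RNA was sequenced from SZ95 sebocytes, an immortalised line of the human sebaceous gland, in 12 libraries. Cells of 2 groups received LA, alone or together with RVT (resveratrol, a plant polyphenol), and cells of the other 2 received PGN, alone or together with RVT, with 3 libraries described as biological replicates in each group. LA and PGN are read here as linoleic acid and bacterial peptidoglycan, since the labels do not spell them out. Every group carries 1 of these agents, so no untreated level can be given. The sources used here give no doses or times. By its title, the study asks how resveratrol acts on lipid accumulation and inflammation in these cells.

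Plasminogen is a circulating zymogen that is cut to plasmin, a broad serine protease that dissolves fibrin and helps to degrade matrix. Urokinase does this at the cell surface, bound to its receptor, and tissue-type plasminogen activator does it mainly on fibrin and on annexin surfaces. Serpins inhibit both activators by forming covalent complexes with them. In skin, urokinase and its receptor are known from migrating keratinocytes at wound edges, and SERPINB2 is known as an abundant serpin of keratinocytes.

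The promoters of PLAU, PLAUR, SERPINB2 and ANXA2 are shown because the first and the third of these genes differed most with RVT, together in the PGN arm. The windows of PLAUR, SERPINB2 and ANXA2 hold the letters of an AP-1 site, and genes of AP-1 subunits are among the regulators measured. The windows of PLAU and SERPINE2 hold no such letters. Any part of AP-1 in the differences of these genes was not tested. Each sequence is the 250 bases before a transcription start, 5′ to 3′ on the gene's strand, from RefSeq on GRCh38.p14, where 5 of the 6 genes matched by symbol (all but PLAT). Capitals mark matches to the AP-1 motif TGANTCA and, close to the start, to the TATA box. The PLAU window is the more downstream of a pair, at chr10:73910882-73911131 on the plus strand, the PLAUR window is chr19:43670170-43670419 on the minus strand, the SERPINB2 window is chr18:63887455-63887704 on the plus strand, and the ANXA2 window is chr15:60397987-60398236 on the minus strand.
PLAU: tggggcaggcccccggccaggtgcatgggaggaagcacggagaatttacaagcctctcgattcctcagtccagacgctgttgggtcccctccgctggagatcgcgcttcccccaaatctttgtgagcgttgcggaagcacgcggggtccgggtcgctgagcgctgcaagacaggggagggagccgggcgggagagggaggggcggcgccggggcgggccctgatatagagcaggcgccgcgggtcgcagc
PLAUR: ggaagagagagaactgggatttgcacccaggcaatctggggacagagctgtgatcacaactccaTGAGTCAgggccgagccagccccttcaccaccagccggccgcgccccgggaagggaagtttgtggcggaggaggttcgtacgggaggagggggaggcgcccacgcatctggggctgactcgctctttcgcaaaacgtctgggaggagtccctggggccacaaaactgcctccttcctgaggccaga
SERPINB2: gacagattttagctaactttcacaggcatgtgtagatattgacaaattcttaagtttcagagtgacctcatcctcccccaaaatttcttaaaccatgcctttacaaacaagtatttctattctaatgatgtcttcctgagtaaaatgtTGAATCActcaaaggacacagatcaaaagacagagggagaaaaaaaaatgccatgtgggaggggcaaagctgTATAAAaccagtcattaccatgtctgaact
ANXA2: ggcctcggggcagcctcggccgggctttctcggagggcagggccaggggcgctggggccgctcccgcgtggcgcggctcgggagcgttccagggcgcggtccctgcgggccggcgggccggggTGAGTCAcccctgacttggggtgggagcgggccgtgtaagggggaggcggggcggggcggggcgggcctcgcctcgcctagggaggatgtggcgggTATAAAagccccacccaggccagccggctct

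The 4 motifs were searched on both strands of 300-base windows, from 250 bases before the start to 50 bases after it. TGANTCA was found in windows of 3 of the 5 genes: at bases -186 to -180 from the start of PLAUR, -102 to -96 from that of SERPINB2 and -127 to -121 from that of ANXA2. It is present in 7.71% of all 35116 RefSeq windows. Counts here are per gene and shares are per window, so their units differ. The 5 genes have 7 windows, 2 each for PLAU and SERPINE2. TATAAA was found at bases -30 to -25 of SERPINB2 and -31 to -26 of ANXA2, and in 11.5% of all windows. The Sp1 GC box GGGCGG was found for 3 of the 5 genes, PLAU, SERPINE2 and ANXA2, against 45% of windows (15786 of 35116), and overlapping copies of it lie in the ANXA2 window. The NF-kB consensus, found in 5.91% of all windows, was found for 0 of the 5 genes, which says only that those letters are not in these windows. No match overlapped a match to another motif. The shown windows also differ in base composition: G and C make up 37.2% of the SERPINB2 window, 63.2% of that of PLAUR, 68.8% of that of PLAU and 78.0% of that of ANXA2.

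Levels were deposited as TPM, which scales reads to transcript length and to the library's total, so that different genes can be set side by side. In the LA group the mean level was 15.2 TPM for PLAT, 24.9 for SERPINE2, 65.7 for SERPINB2, 129.8 for PLAUR, 157 for PLAU and 3827 for ANXA2. That order also held with LA and RVT. With PGN, SERPINB2 (167 TPM) stood above PLAUR (134 TPM). With PGN and RVT it stood below both PLAU (107 TPM) and PLAUR (116 TPM), and PLAUR stood above PLAU. In each of the 4 groups, no library of one gene overlapped those of its neighbour in the order. The LA and PGN tables rest on different gene annotations, so levels in the LA and PGN arms are set side by side and are not tested against each other. In bulk RNA, fewer cells of a type and less RNA per cell cannot be told apart.

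**Figure D1:**
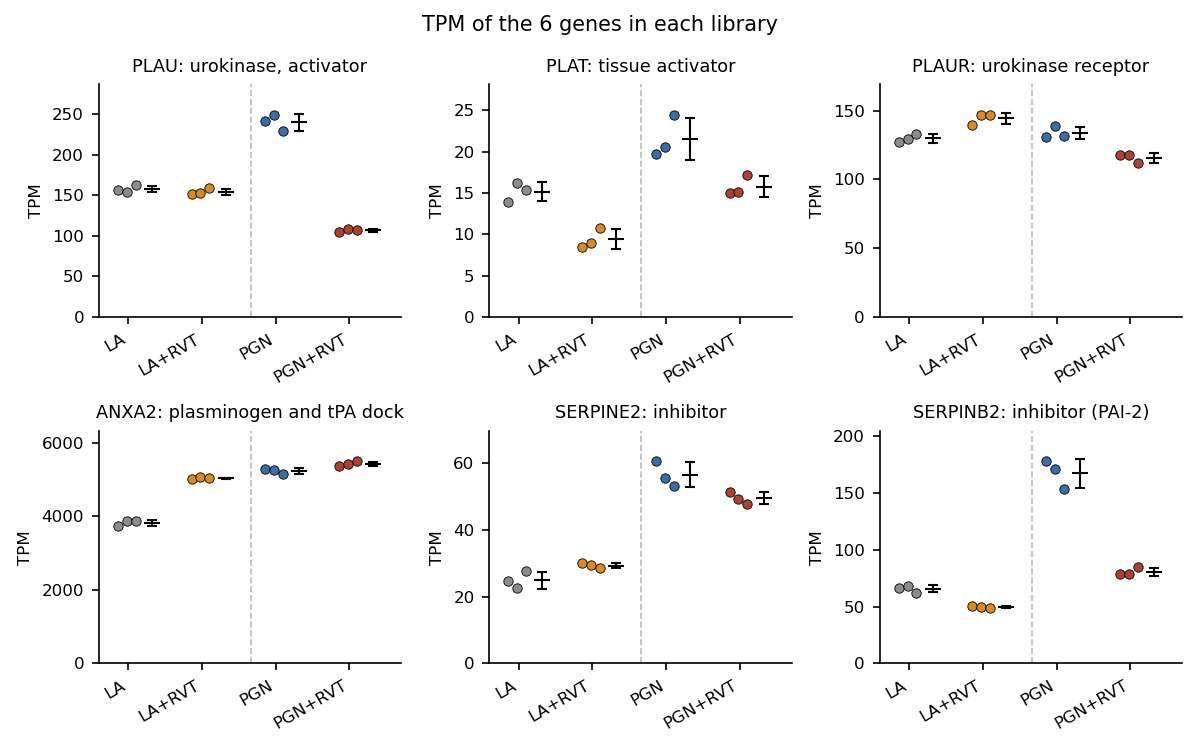
TPM (vertical axes, each from 0) of the 6 genes in each of the 12 libraries (points, 3 per group), with the mean and SD beside them (cross and bars) and a dashed line between the LA and PGN tables. PLAU stood near 240 TPM with PGN and near 107 TPM with PGN and RVT, while its LA groups overlapped. ANXA2 was higher with RVT beside LA, from 3827 to 5039 TPM on average.

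PLAU was near the same level with and without RVT beside LA, and its mean beside PGN was 2.24 times as high without RVT as with it. ANXA2 was 31.7% higher with RVT beside LA and 3.69% higher beside PGN. Log2 fold changes are differences of mean log2(TPM + 1), given with their standard error (SE) from limma, a linear model fitted across all genes, and a gene is counted as called where the Benjamini-Hochberg adjusted p is under 0.05. In the LA arm 4 of the 6 genes were called, PLAUR and ANXA2 higher with RVT and PLAT and SERPINB2 lower, against 15.7% of all genes tested. In the PGN arm 4 of the 6 were called, PLAU, PLAUR, PLAT and SERPINB2, all lower with RVT, against 15.6% of all genes. The 3 libraries with RVT did not overlap the 3 without for 5 of the 6 genes in the LA arm (all but PLAU), against 36.2% of all genes, and for 6 of 6 in the PGN arm, against 36.1% of all genes. For the difference between the arms 5 of the 6 were called (all but PLAT), all with the more negative change in the PGN arm, against 14.8% of all genes. With single libraries left out the counts were 3 to 5 in the LA arm and 2 to 4 in the PGN arm. Since the genes were proposed from these contrasts, nothing is read from these counts. The median log2 fold change of the 6 genes was 0.06 in the LA arm and -0.32 in the PGN arm, beside 0.04 and 0.06 over all genes tested.

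**Figure D2:**
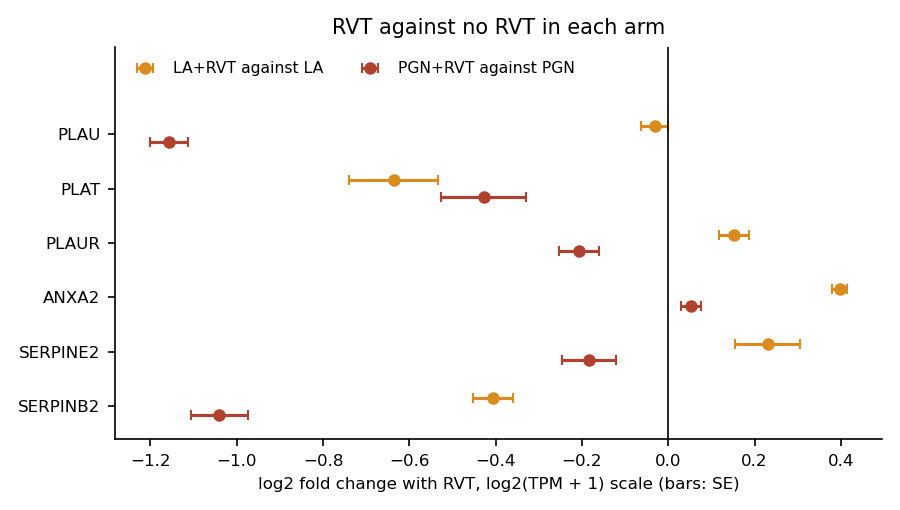
Log2 fold change with RVT on the log2(TPM + 1) scale (horizontal axis) for the 6 genes, in the LA arm and in the PGN arm, with bars of 1 SE from 3 libraries against 3. PLAU (-1.16) and SERPINB2 (-1.04) lie farthest to the left in the PGN arm, and PLAUR and SERPINE2 lie on opposite sides of 0 in the 2 arms.

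PLAU encodes urokinase, the secreted serine protease that cuts plasminogen, and its gene lies at chr10:73909177-73917497 on the plus strand (GENCODE 29 on GRCh38, as for all genes below). With LA the libraries held 156, 154 and 162 TPM, and with LA and RVT 151, 153 and 158 TPM. The 2 groups overlapped, and the log2 fold change was -0.03 (SE 0.03). With PGN the libraries held 241, 249 and 229 TPM, and with PGN and RVT 105, 108 and 107 TPM. The groups lay far apart relative to their spread (mean 239.5 ± 9.96 against 106.8 ± 1.74 TPM, SD, n = 3). The log2 fold change was -1.16 (SE 0.04). By level, PLAU stood between ranks 571 and 614 of the genes in a PGN library and between 1471 and 1526 with PGN and RVT. The difference between the arms was -1.12 (SE 0.05) on the log2 scale.

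C10orf55, an antisense gene, overlaps PLAU at chr10:73909969-73922777 on the minus strand. Without and with RVT its mean was 1.17 and 1.41 TPM in the LA arm and 1.87 and 0.777 TPM in the PGN arm, and it was not called in either arm (adjusted p = 0.637 and 0.0753, limma). No source used here says whether the counting used strand, and without it reads of the overlapping stretch could belong to either gene. The level of C10orf55 was at most 2.39 TPM in any library.

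PLAT encodes tissue-type plasminogen activator, the protease that works best on fibrin and on annexin surfaces, and its gene lies at chr8:42175233-42207724 on the minus strand. It was the lowest of the 6 genes in each of the 4 groups. With LA the libraries held 13.9, 16.2 and 15.4 TPM, and with LA and RVT 8.47, 9.0 and 10.8 TPM. The groups did not overlap, and the log2 fold change was -0.64 (SE 0.10). With PGN the libraries held 19.7, 20.5 and 24.4 TPM, and with PGN and RVT 14.9, 15.1 and 17.2 TPM. Again the groups did not overlap, and the log2 fold change was -0.43 (SE 0.10). PLAT was thus lower with RVT beside both agents, and the difference between the arms was 0.21 (SE 0.15). Its log2 fold change in the PGN arm was -0.46 without PGN 2 and -0.34 without PGN 3.

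PLAUR encodes the urokinase receptor, a lipid-anchored surface protein, and its gene lies at chr19:43646095-43670547 on the minus strand. With LA the libraries held 127, 129 and 133 TPM, and with LA and RVT 139.6, 147 and 147 TPM. The groups did not overlap, with a log2 fold change of 0.15 (SE 0.03). With PGN the libraries held 131, 139 and 132 TPM, and with PGN and RVT 117, 118 and 112 TPM. RVT libraries were all lower here, with a log2 fold change of -0.21 (SE 0.05). The changes lay on opposite sides of 0, and their difference was -0.36 (SE 0.05). With library medians equalised, the log2 fold change in the LA arm was 0.10.

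ANXA2 encodes annexin A2, which docks plasminogen and tissue-type activator at the surface as a complex with S100A10, and its gene lies at chr15:60347134-60402883 on the minus strand. It was among the most abundant transcripts of these cells. With LA the libraries held 3740.2, 3863 and 3878 TPM, at ranks 21 to 23, and with LA and RVT 5023, 5060.2 and 5034 TPM, at rank 11. The 2 groups were separated by many times their spread (3827 ± 75.6 against 5039 ± 19.1 TPM, SD, n = 3), and the log2 fold change was 0.40 (SE 0.02). With PGN the libraries held 5288, 5275 and 5151 TPM, and with PGN and RVT 5375, 5419 and 5499.9 TPM. These groups did not overlap but lay close together, with a log2 fold change of 0.05 (SE 0.02) that turned to -0.01 with library medians equalised. The difference between the arms was -0.34 (SE 0.03).

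S100A10, the partner of ANXA2 in the surface complex, was not called in either arm: its mean was 1390.2 TPM with LA and 1468 with LA and RVT (adjusted p = 0.117, limma), and 1467 with PGN and 1544 with PGN and RVT (adjusted p = 0.400). The mean TPM of ANXA2 was 31.7% higher with RVT in the LA arm, where that of S100A10 was 5.56% higher. Near-identical processed copies of ANXA2 could take some of its reads. ANXA2P1, ANXA2P2 and ANXA2P3 each held at most 0.42 TPM in any library, and ANXA2 summed with them gave the same log2 fold changes to 2 decimals (0.40 and 0.05).

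SERPINE2 encodes protease nexin-1, a secreted serpin that inhibits thrombin, both activators and plasmin, and its gene lies at chr2:223975112-224039319 on the minus strand. With LA the libraries held 24.6, 22.6 and 27.6 TPM, and with LA and RVT 30.1, 29.4 and 28.6 TPM. The RVT libraries were all above the others, by a log2 fold change of 0.23 (SE 0.07). With PGN the libraries held 60.6, 55.7 and 53.2 TPM, and with PGN and RVT 51.4, 49.3 and 47.9 TPM. Here the RVT libraries were all below, by -0.18 (SE 0.06). The difference between the arms was -0.41 (SE 0.10). Without LA 3, the highest library of its group, the log2 fold change in the LA arm was 0.30.

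SERPINB2 encodes plasminogen activator inhibitor 2, a serpin that stays largely inside cells, and its gene lies at chr18:63871692-63903890 on the plus strand. With LA the libraries held 66.5, 68.4 and 62.2 TPM, and with LA and RVT 50.2, 49.3 and 48.4 TPM. The groups were well apart, with a log2 fold change of -0.41 (SE 0.05). With PGN the libraries held 178, 171 and 153 TPM, and with PGN and RVT 78.6, 78.6 and 84.7 TPM. The mean without RVT was 2.07 times that with it, and the log2 fold change was -1.04 (SE 0.07). SERPINB2 was lower with RVT beside both agents, by more beside PGN (difference -0.63, SE 0.08). The summed level of the 5 keratinocyte differentiation markers found (KRT1, KRT10, FLG, IVL and TGM1) was also lower with RVT in the PGN arm. It was between 80.3 and 88.0 TPM with PGN and between 59.4 and 62.2 TPM with PGN and RVT. The markers did not all move alike there. IVL averaged 44.4 and 28.6 TPM without and with RVT, FLG 6.37 and 1.04, KRT10 13.8 and 11.2, and TGM1 18.7 and 19.9. In the LA arm that sum was between 59.1 and 65.7 TPM and between 57.1 and 69.1 TPM, and KRT1 held at most 0.09 TPM in any library; the part of such cells in the SERPINB2 result was not tested.

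The balance of the genes within a library shifted with RVT beside both agents, and these ratios of TPM describe transcripts, not protein or activity. PLAU stood above its receptor PLAUR in 9 libraries (ratio 1.21 ± 0.02 and 1.07 ± 0.02 in the LA arm without and with RVT, and 1.79 ± 0.05 with PGN, SD, n = 3) and below it in the 3 libraries with PGN and RVT (0.924 ± 0.04). The ratio of PLAU to PLAT moved in opposite directions with RVT, from 10.4 ± 0.86 to 16.5 ± 1.65 beside LA and from 11.2 ± 1.62 to 6.82 ± 0.50 beside PGN. The first shift came with lower PLAT and level PLAU, and the second with lower PLAU. SERPINB2 stayed near the same share of PLAU in the PGN arm (0.698 ± 0.04 and 0.755 ± 0.03), whose ranges overlap, but was a smaller share of it with LA and RVT (0.320 ± 0.01) than with LA (0.418 ± 0.03).

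Without and with RVT, PLAU and PLAT summed to 172.6 ± 4.02 and 163.4 ± 4.91 TPM in the LA arm and to 261.1 ± 7.96 and 122.6 ± 2.46 TPM in the PGN arm. The inhibitors SERPINE2 and SERPINB2, which are not all inhibitors of the system, summed to 90.7 ± 0.74, 78.7 ± 1.63, 223.6 ± 16.1 and 130.2 ± 2.35 TPM in the same order. This sum exceeded that of the activators in all 3 libraries with PGN and RVT and in none of the other 9.

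**Figure D3:**
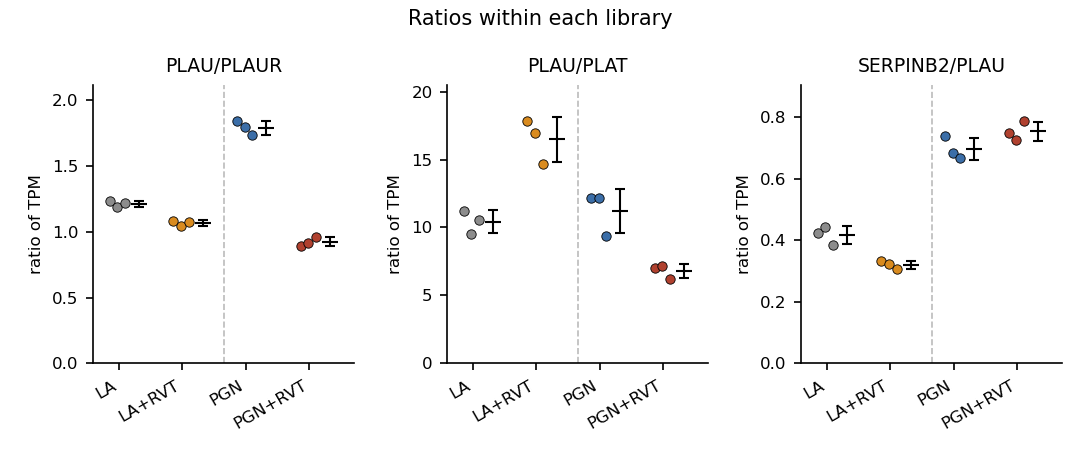
Ratios of TPM within each library (vertical axes, each from 0) for PLAU over PLAUR, PLAU over PLAT and SERPINB2 over PLAU, with 3 libraries per group as points and the mean and SD beside them. PLAU over PLAUR falls below 1 in the libraries with PGN and RVT alone, and PLAU over PLAT is higher with RVT beside LA and lower with RVT beside PGN.

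Around the 6 genes, a list of 61 further genes of the pathway and its neighbours was read in the same fits, 43 of which could be tested in each arm. In the LA arm 13 rose with RVT, 3 fell and 27 were not called, with a median log2 fold change of 0.10. The called share was 37.2%, against 15.7% of all genes, whose calls also lay mostly on the higher side (1645 higher and 781 lower). In the PGN arm 8 rose, 13 fell and 22 were not called, with a median of -0.02. The called share was 48.8%, against 15.6% of all genes, of which 1557 were higher and 720 lower. The list was chosen with results of these libraries known, so nothing particular to it is read from these shares. These 21 calls in the PGN arm became 13 without PGN 2 or any 1 of the PGN with RVT libraries. The medians over all genes tested were 0.04 and 0.06. PLG, the gene of plasminogen itself, held at most 0.28 TPM in any library. HGF and MMP3 were listed at 0 in all 12 libraries, and VTN, which encodes the matrix ligand vitronectin, held at most 0.45 TPM.

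Of the proteases that can activate the urokinase zymogen, the transmembrane protease gene TMPRSS4 fell in the LA arm from 27.1 to 20.2 TPM (-0.41 as a log2 fold change, adjusted p = 0.0121, limma), and matriptase (ST14) rose in the PGN arm from 111 to 139 TPM (0.32, adjusted p = 0.0228). The ST14 call was lost without PGN 2 or any 1 of the PGN with RVT libraries (adjusted p between 0.0567 and 0.0783). It was also lost with library medians equalised. The cathepsin genes CTSB and CTSL, whose products also cleave the zymogen, were not called in either arm (adjusted p between 0.0502 and 0.487). CTSB in the LA arm was called with library medians equalised (-0.18), with a filter at a mean of 5 TPM and with a robust prior.

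Among receptors and surface docks, 3 of the 9 tested genes rose in the LA arm and 2 fell in the PGN arm. ITGA3, an integrin subunit that partners with the urokinase receptor, rose from 193 to 248 TPM in the LA arm (0.36, adjusted p = 0.00136, limma) and was 163 and 168 TPM in the PGN arm. ENO1, a glycolytic enzyme that binds plasminogen at the surface, rose from 1492 to 1651 TPM beside LA (0.15, adjusted p = 0.00315) and fell from 2551 to 2315 TPM beside PGN (-0.14, adjusted p = 0.0221). The ENO1 fall was lost without PGN 2, PGN 3, PGN with RVT 1 or PGN with RVT 3 (adjusted p between 0.0583 and 0.0944). PLGRKT, a plasminogen receptor, rose beside LA from 20.7 to 27.4 TPM (0.38, adjusted p = 0.0482), a call lost when any 1 of the 6 libraries was left out (adjusted p between 0.0553 and 0.137). The PLGRKT call was also lost with library medians equalised. ITGA5, a fibronectin receptor subunit, fell beside PGN from 83.5 to 64.8 TPM (-0.36, adjusted p = 0.0150), a call lost without PGN with RVT 2 (adjusted p = 0.0551).

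The clearance receptor LRP1, which takes up activator-inhibitor complexes, rose in the PGN arm from 13.8 to 19.0 TPM (0.44, adjusted p = 0.0240, limma). The LRP1 call was lost without PGN 1, PGN 2, PGN with RVT 1 or PGN with RVT 3 (adjusted p between 0.0513 and 0.0888). It was also lost with library medians equalised. The LRP1 chaperone LRPAP1 rose from 96.1 to 117 TPM (0.28, adjusted p = 0.0105), a call lost with library medians equalised. SORL1 fell in the LA arm from 15.1 to 11.4 TPM (-0.38, adjusted p = 0.0264), a call lost without any 1 of the LA libraries, LA with RVT 1 or LA with RVT 3 (adjusted p between 0.0548 and 0.0767). The list of further inhibitors held 1 call among 3 tested genes, the plasmin inhibitor gene SERPINF2, at 3.90 and 5.52 TPM in the PGN arm (0.41, adjusted p = 0.0448), which was lost when any 1 of the 6 libraries was left out (adjusted p between 0.0676 and 0.133). The SERPINF2 call was also lost with library medians equalised.

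Of the targets of plasmin and urokinase, FN1 (fibronectin) rose in the LA arm from 473 to 730.1 TPM (0.63, adjusted p = 8.05e-05, limma) and fell in the PGN arm from 841 to 733 TPM (-0.20, adjusted p = 0.00788). MMP9, a gelatinase, rose beside LA from 6.27 to 16.9 TPM (1.29, adjusted p = 0.000387) and was 47.2 and 41.3 TPM beside PGN, where it was not called (adjusted p = 0.258). TGFB1, a latent growth factor, rose beside LA from 14.7 to 20.9 TPM (0.49, adjusted p = 0.00318) and beside PGN from 15.9 to 21.3 TPM (0.39, adjusted p = 0.0169). The second of the TGFB1 calls was lost without PGN 2, PGN with RVT 2 or PGN with RVT 3 (adjusted p between 0.0505 and 0.0614). MMP1, a collagenase, fell beside PGN from 5.84 to 3.20 TPM (-0.69, adjusted p = 0.0174), a call lost without PGN 2 or any 1 of the PGN with RVT libraries (adjusted p between 0.0509 and 0.0600).

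Of the 6 coagulation genes of the cell surface, 2 rose in the LA arm, and 1 rose and 4 fell in the PGN arm. F3, tissue factor, rose beside LA from 455 to 699 TPM (0.62, adjusted p = 0.000227, limma) and fell beside PGN from 669 to 525 TPM (-0.35, adjusted p = 0.0101). F2RL1, a protease-activated receptor, did likewise (0.25, adjusted p = 0.00326, and -0.35, adjusted p = 0.00261). THBD, thrombomodulin, was 8.40 and 8.99 TPM in the LA arm and fell beside PGN from 20.5 to 9.48 TPM (-1.04, adjusted p = 0.000507). PROCR, the protein C receptor, rose beside PGN from 74.0 to 102 TPM (0.45, adjusted p = 0.00121). TFPI, the inhibitor of tissue factor, fell beside PGN from 28.9 to 19.7 TPM (-0.52, adjusted p = 0.0199), a call lost without PGN 2, PGN with RVT 1 or PGN with RVT 2 (adjusted p between 0.0561 and 0.0733).

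All 10 genes listed as regulators of PLAU, PLAUR or SERPINB2 transcription or mRNA decay were tested: 5 rose and 1 fell in the LA arm, and 2 rose and 5 fell in the PGN arm. FOSL1, an AP-1 subunit, rose beside LA from 160.4 to 274 TPM (0.77, adjusted p = 0.00039, limma) and fell beside PGN from 410.5 to 205 TPM (-0.997, adjusted p = 0.000198), with no overlap in either arm. ETS1 rose beside LA (0.44, adjusted p = 0.00172) and fell beside PGN (-0.95, adjusted p = 0.000473). ETS2 fell in both (-0.39, adjusted p = 0.00257, and -0.65, adjusted p = 0.000517). NFKB1, an NF-kB subunit, fell beside PGN from 41.3 to 26.1 TPM (-0.64, adjusted p = 0.000857). EGR1, an early response factor, rose in both arms (1.53 and 1.19, adjusted p = 5.9e-05 and 0.000153). The AP-1 subunit gene FOS rose beside LA from 4.32 to 7.66 TPM (0.70, adjusted p = 0.0054) and was 4.82 and 6.97 TPM beside PGN (adjusted p = 0.129). JUN, another subunit gene, rose beside LA from 24.9 to 30.6 TPM (0.29, adjusted p = 0.0114) and fell beside PGN from 44.9 to 37.8 TPM (-0.24, adjusted p = 0.0400). The JUN fall was lost when any 1 of the 6 libraries was left out (adjusted p between 0.0619 and 0.136). JUNB rose beside PGN from 76.9 to 89.0 TPM (0.21, adjusted p = 0.0398), a call lost without any 1 of these libraries but PGN 2 (adjusted p between 0.0775 and 0.118) and with library medians equalised. The difference between the arms was called for FOSL1 (-1.76), ETS1 (-1.38), NFKB1 (-0.82), JUN (-0.53), EGR1 (-0.34) and ETS2 (-0.26).

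**Figure D4:**
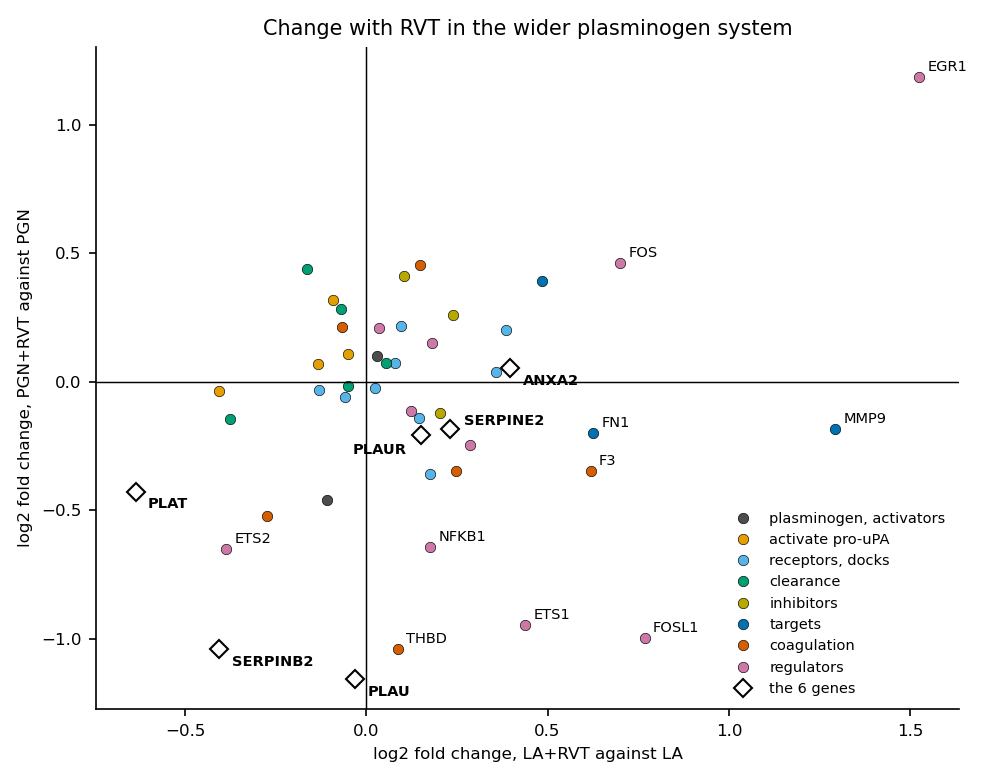
Log2 fold change with RVT in the LA arm (horizontal axis) against that in the PGN arm (vertical axis), on the log2(TPM + 1) scale, for the 6 genes (open diamonds) and the tested genes of the wider list (points, coloured by role), 3 libraries per group. FOSL1 and ETS1 lie at the lower right (0.77 and -0.997, 0.44 and -0.95), EGR1 lies at the upper right, and PLAU lies at the bottom near 0 of the horizontal axis.

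Genes whose pattern was most like that of each member were found by the root mean square (RMS) difference of log2(TPM + 1), centred in each arm, over the 12 libraries, among the 10530 genes that averaged 5 TPM or more in each table. The points share libraries, so these are descriptions. IGFBP3, which encodes a binding protein of insulin-like growth factors (RMS 0.0514), CSF1, a macrophage growth factor (0.0659), and THBD (0.075) stood nearest to PLAU. NFKBIA, an NF-kB inhibitor (0.071), GDA, guanine deaminase (0.08), and PHACTR3 (0.103) stood nearest to SERPINB2. PLAUR had C1orf35, EIF5A and ENO1 nearest (0.03 to 0.04), and ANXA2 had PSME3, RTN4 and PYGB (each 0.03). SERPINE2 had PUM3, CTNNAL1 and POGK (0.05 to 0.06), and PLAT had SMOX, SEMA4B and MMP28 at the largest distances (0.12 to 0.13). By correlation of the same values, which ignores the size of a change, CSF1 (r = 0.996), IL1A (r = 0.995) and IL1B (r = 0.993) came first for PLAU, FOSL1 (r = 0.968) for PLAUR, and NFKBIA (r = 0.989) for SERPINB2. Among the 6 genes themselves, PLAUR and SERPINE2 had the smallest distance (RMS 0.08), followed by SERPINE2 and ANXA2 (0.12), PLAUR and ANXA2 (0.13) and PLAU and SERPINB2 (0.15). Small changes give small distances even where directions differ. Within the PGN arm, in the same order, these pairs gave r = 0.793, -0.64, -0.848 and 0.994. Within the LA arm they gave r = 0.806, 0.819, 0.943 and 0.312.

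The labelled cell type was checked on 13 sebocyte markers, of which 10 reached 1 TPM in each group. They summed to between 1803 and 1847 TPM with LA and between 2003 and 2042 TPM with LA and RVT. In the PGN arm the sums were between 2501 and 2634 TPM without RVT and between 2506 and 2576 TPM with it. Most of each sum was KRT7. It averaged 1203 and 1471 TPM without and with RVT in the LA arm, and 1753 and 1673 TPM in the PGN arm. In the LA arm KRT7 was called higher with RVT, and KRT5 (189.4 to 146.5 TPM) and MUC1 (128.6 to 88.37 TPM) lower. In the PGN arm PPARG (38.73 to 23.13 TPM), PRDM1 and KRT5 were called lower, and FADS2 (56.67 to 119.7 TPM), FASN and SCD higher. The late sebocyte gene AWAT2 and the melanocortin receptor gene MC5R were listed at 0 in all 12 libraries. Fibroblast markers summed to between 10.2 and 16.3 TPM in any library. Endothelial markers, almost all CDH5, summed to between 17.5 and 18.0 TPM with LA and between 7.24 and 8.11 TPM with LA and RVT, and to between 24.8 and 26.5 TPM with PGN and between 23.4 and 24.2 TPM with PGN and RVT. The sum of the immune markers, almost all CD68, was higher with RVT in both arms. It was between 48.1 and 51.8 TPM with LA and between 54.9 and 58.9 TPM with LA and RVT. With PGN it was between 35.0 and 38.2 TPM, and with PGN and RVT between 52.6 and 54.4 TPM. CD14 went the other way on average, from 2.56 to 1.56 TPM beside LA and from 3.1 to 2.81 TPM beside PGN. It was not called in either arm (adjusted p = 0.108 and 0.872, limma). PTPRC held at most 0.62 TPM in any library. The sum of the melanocyte markers, mainly MITF and PMEL, was also higher with RVT in both arms without overlap. It was between 25.0 and 26.0 TPM with LA and between 29.6 and 32.3 TPM with LA and RVT. With PGN it was between 19.4 and 24.4 TPM, and with PGN and RVT between 29.7 and 31.1 TPM. MITF averaged 18.3 and 23.4 TPM without and with RVT in the LA arm, and 16.2 and 20.5 TPM in the PGN arm. PMEL averaged 6.85 and 6.39 TPM in the LA arm, so it was not higher there, and 5.85 and 9.51 TPM in the PGN arm. The pigment enzyme gene TYR was listed at 0 in all 12 libraries. The part of any of these in the differences of the 6 genes was not tested.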

How the data were processed

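SZ95 sebocyte RNA was sequenced in 12 libraries, and the titles gave their groups and replicate numbers. TPM values come from the tables the authors deposited, 60671 genes for LA and 60666 for PGN. The submitters' processing notes name RSEM 1.3.1, HISAT2 2.1.0, GRCh38.p13 and DESeq2 1.24.0 without roles. TPM keeps no depth, and the libraries' depths are therefore unknown and no counting intervals were computed; columns summed to between 994373 and 997060.

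On the log2(TPM + 1) scale, genes averaging 1 TPM or more over the fitted libraries (15409 in the LA arm, 14622 in the PGN arm, 15177 for the difference) were compared between groups in R 4.3.3 by limma 3.58.1 (two-sided, with a trended prior, Benjamini-Hochberg adjustment over all genes of the fit, threshold 0.05). Each RVT comparison used its own 6 libraries, and the difference used all 12. The scripts were tested on simulated data. A fold change on the log2(TPM + 1) scale understates that of low genes. Nothing says that replicates came from separate cultures or days, so p-values may reflect technical spread only. Named in full were the 6 genes. Others could be named if they were listed genes called in an arm, activator, receptor, clearance or inhibitor genes at 1 TPM or more, copies of ANXA2, cell type markers, or the 3 genes most like each member. The members and lists were chosen with earlier results of these data known; the keratinocyte marker LOR was not found, and 1 listed gene is not reported here. Positions came from GENCODE 29, matched by identifier, and promoters from RefSeq. Alternatives were another pseudocount, other filters, equalised medians, a replicate block, a robust prior, the spread of all 12 libraries, ANXA2 summed with its copies, and each library left out.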

Additional observations from a re-analysis of the deposited data

Results flagged for a closer look

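The change with RVT differed between the PGN and LA arms, by limma's test of the difference on all 12 libraries, for 21 of the 44 tested genes of the wider list (47.7%), against 14.8% of all genes, and 5 of the 6 genes passed the same threshold. The values are the log2 fold change in the PGN arm minus that in the LA arm. The 6 genes were proposed with results of these libraries known, so for them the values are a description: PLAU -1.12, SERPINB2 -0.63, SERPINE2 -0.41, PLAUR -0.36 and ANXA2 -0.34.

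Among proteases that activate the urokinase zymogen the change was more positive in the PGN arm for ST14 (0.41), TMPRSS4 (0.37) and CTSB (0.20), and among clearance genes for LRP1 (0.60) and LRPAP1 (0.36). It was more negative in the PGN arm for the surface genes ITGA5 (-0.54), ITGA3 (-0.32) and ENO1 (-0.29) and for the target genes MMP9 (-1.48), FN1 (-0.83) and MMP1 (-0.81). Coagulation genes gave -1.13 for THBD, -0.96 for F3, -0.59 for F2RL1 and 0.31 for PROCR. Regulators gave -1.76 for FOSL1, -1.38 for ETS1, -0.82 for NFKB1, -0.53 for JUN, -0.34 for EGR1 and -0.26 for ETS2.

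The calls of CTSB, ITGA5, MMP1 and TMPRSS4 did not hold in 9 of the 12 leave-one-out fits each, with adjusted p between 0.0604 and 0.101 for CTSB, 0.0547 and 0.0843 for ITGA5, 0.0579 and 0.0775 for MMP1, and 0.0505 and 0.0870 for TMPRSS4. The other 17 calls of the wider list were made in each of these 12 fits. The wider list was chosen with results of these libraries known, so this is not independent support.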

How the results depend on the processing

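All alternatives were planned, and those below moved a count by over 1.5 times, shifted the split of calls or turned a direction. With no filter on low values 1610 genes were called in the LA arm in place of 2426 and 1384 in the PGN arm in place of 2277, and 13 of the wider list in the PGN arm in place of 21. Leaving out each library in turn gave between 1428 and 1690 genes in the LA arm and between 1095 and 1861 in the PGN arm, where it gave between 2 and 4 of the 6 genes and between 13 and 18 of the wider list, lowest without PGN 2 or any 1 of the PGN with RVT libraries. The lowest counts of the 6 genes came without PGN 2, PGN with RVT 1 or PGN with RVT 2. With library medians equalised, calls split into 1041 higher and 1080 lower in the LA arm (1645 and 781 as deposited) and 850 and 1020 in the PGN arm (1557 and 720), and ITGA3 in the PGN arm, not called, reversed from 0.0394 to -0.0193, as did ANXA2 there, from 0.05 to -0.01.

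Same-numbered libraries deviated from their group means with correlations between -0.07 and 0.04. No shared deviation by number was thus seen, but with 3 libraries per group this cannot tell whether they were prepared in pairs. A replicate block gave 1502 genes in the LA arm, 1574 in the PGN arm and 1730 for the difference, with 14 genes of the wider list in place of 16, 15 in place of 21 and 17 in place of 21. The calls lost were PLGRKT and SORL1 in the LA arm, ENO1, JUN, JUNB, SERPINF2, TFPI and TGFB1 in the PGN arm, and CTSB, ITGA5, MMP1 and TMPRSS4 for the difference. TPM gives no depth, so the counting error of low genes such as MMP1 is unknown.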
